A study of Mus musculus with 24 samples.

Results

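Star-strand miRs are the strands that miRBase once named with an asterisk, because they were cloned less often than the other strand of the same hairpin. On the Affymetrix miR arrays of this study they were the probe sets whose names carry the word star. The miR-34, miR-449, miR-199, miR-214, miR-455 and miR-574 families and all hairpin probe sets were left out, which kept 117 of 121 star probe sets and 117 of 1412 mouse probe sets in all. A partner, the probe set of the same name without the asterisk, was found for 104 of the 117. The 13 others had none, mostly because their names carry a locus number, as in miR-218-2*.

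The animals were male C57BL/6 mice, and hippocampi of both sides were pooled from each pup on P9. Untreated controls (Con) stayed with the dam and were handled as little as possible. From P5, MS2 pups received morphine at 2 mg/kg and MS5 pups at 5 mg/kg, and both of these groups also went through daily isolation from the dam in a warmer at 32°C with nitrogen apnea followed by oxygen. Morphine and stress therefore cannot be told apart in either contrast with Con, while MS5 and MS2 share the stress and differ in dose. Each group had 3 miR arrays of separate animals, and a further 5 mRNA arrays per group carried the genes that make and load miRs.

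A miR hairpin is cut by Drosha in the nucleus and by Dicer1 in the cytoplasm into a duplex of 2 strands. One strand is usually kept in an Argonaute protein and the other degraded, so a star strand is often the rarer product, but for many hairpins both strands are loaded. Bases 2 to 8 of the loaded strand, the seed, pair with target mRNAs, so the strands of one hairpin have different targets. In brain, miR-9 and miR-9* are a known pair of this kind, directed at the repressor REST and its cofactor CoREST.

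The strands on which the results below turn are given here so that star and partner can be compared, 5′ to 3′, with the seed in capitals. First come the star strands that rose in MS2:

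miR-31*: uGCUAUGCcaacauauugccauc
miR-154*: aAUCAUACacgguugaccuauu
miR-433*: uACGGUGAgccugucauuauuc

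Then the star strands that fell in MS2:

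miR-17*: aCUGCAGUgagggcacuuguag
miR-218-2*: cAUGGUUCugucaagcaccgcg
miR-99b*: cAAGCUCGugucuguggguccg

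Last, both strands of the hairpins whose star minus partner difference passed the adjusted test:

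let-7g*: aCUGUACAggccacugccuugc
let-7g: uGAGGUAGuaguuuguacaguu
miR-15a*: cAGGCCAUacugugcugccuca
miR-15a: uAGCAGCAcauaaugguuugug
miR-708*: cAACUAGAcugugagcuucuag
miR-708: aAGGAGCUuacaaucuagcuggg

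These are RefSeq sequences of build GRCm38.p6. Which arm a star probe set reads was taken from the naming of the strands, not from probe sequences. No arm was given to 3 of the 117, miR-330* among them, and 85 could be matched to a mature sequence by name. miR-30b* was not among the matched names. miR-31* lies at chr4:88910577-88910599 on the minus strand, miR-154* at chr12:109738474-109738495 (+) and miR-433* at chr12:109591729-109591750 (+), within the span of Rtl1. miR-17* lies at chr14:115043721-115043742 (+), miR-218-2* at chr11:35616882-35616903 (+) within the span of Slit3, and miR-99b* at chr17:17830232-17830253 (+) within the span of Spaca6. let-7g* lies at chr9:106178902-106178923 (+) within the span of Wdr82, miR-15a* at chr14:61632038-61632059 (-) within that of Dleu2, and miR-708* at chr7:96249496-96249517 (+) within that of Tenm4. The gene spans do not separate exons from introns.

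Some arrays stood apart. On the mRNA array of MS5 replicate 9, labelled male like all others, Xist read 11.3 (log2) and the Y-linked Ddx3y 6.24, whereas Ddx3y was between 11.01 and 11.45 on the 14 other mRNA arrays. The mRNA array of MS2 replicate 4 had Neurod2, a transcription factor of forebrain excitatory neurons, at 10.6, against 14.1 for the nearest other MS2 array. Ttr, the main secreted protein of choroid plexus, was 15.9 and 12.8 on the mRNA arrays of MS5 replicates 9 and 14 and 17.9 on that of replicate 12. On the miR arrays the choroid plexus miR-204 was low in MS5 replicates 12 and 14, at 5.23 and 5.37, and not in replicate 9, at 7.31. A replicate number may thus not mark the same pup on both kinds of array. On the miR arrays MS2 replicate 4 had the highest miR-206, at 6.78 against 4.56 to 5.51 on the other 8. Counts below are therefore also given without MS2 replicate 4, and for MS5 without replicate 9 or 12. Of 7 brain-enriched miRs, miR-124 was the highest, at 14.17 to 14.38 on all 9 arrays, and miR-219, a miR of oligodendrocytes, was at the level of the hairpin probe sets, at 3.99 to 4.21.

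Most star probe sets gave little signal. The median of their mean log2 signals was 4.45, against 6.66 for the partners and 4.16 for all mouse probe sets, and 29 of 117 had a mean of at least 6. Hairpin probe sets, with a median of 4.09, show where signal runs out: 2.03% of them reached 6. Among the members, 88 had a mean below 6, and differences there are close to that floor. The highest was miR-140*, at 9.97. It is the strand of a hairpin inside Wwp2, known from cartilage, and has long been read as the main product. It was followed by miR-127* at 9.08, miR-9* at 8.97, miR-330* at 8.97, miR-17* at 8.47 and miR-431* at 8.08. miR-106b*, miR-138*, miR-99b* and miR-3072* completed the highest 10, between 7.62 and 7.90. Of these, miR-127* and miR-431*, like miR-433*, come from hairpins that lie opposite the imprinted gene Rtl1.

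The asterisk did not always go with the lower signal. The star probe set was below its partner on all 9 arrays in 64 of 104 pairs, above it on all 9 in 13, and on no fixed side in 27. In 9 of the 13 the star probe set had a mean of at least 6. miR-140* was above miR-140 by 4.06 on the log2 scale (9.97 against 5.91), and miR-3072* above miR-3072 by 2.96. miR-467b*, miR-325*, miR-135a* and miR-330* were above their partners by 2.52 to 2.63, and miR-9* was above miR-9 by 1.72. At the other end the difference of let-7b* from let-7b was -8.27. Both strands reached 6 in 17 pairs, the partner alone in 36, the star alone in 7 and neither in 44. Probe sets differ in how strongly they bind, so these differences in level do not give the ratio of the strands in the tissue. Only the change of a difference between groups was tested.

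The strands also differed in sequence. Of the 85 star strands with a sequence, 13 began with U, 29 with A, 31 with C and 12 with G. Of 82 partner strands 49 began with U, the base that Argonaute proteins are known to favour at the 5′ end of the loaded strand. The median GC content was 50% for star strands and 43.2% for partners. The star lay on the 3′ arm in 52 and on the 5′ arm in 33. No star strand had the seed of a partner strand in the set. Within the star strands 8 seeds were shared, each by 2 members. miR-17* shared its seed CUGCAGU with miR-20b*, whose mean signal was 4.06 and whose log2 change in MS2 was -0.02. miR-30a* and miR-30e* shared the seed UUUCAGU, as the sequences show:

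miR-30a*: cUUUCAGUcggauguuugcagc
miR-30e*: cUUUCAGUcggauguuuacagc

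In MS2 against Con, 7 of 117 star probe sets (5.98%) passed the threshold of the study, a change over 1.5-fold at an unadjusted p below 0.05, against 2.97% of all 1412 probe sets. The 1412 include 690 hairpin probe sets, most of them at the floor, and over the 601 mature probe sets that are not star the share was 5.66%, close to that of the star strands. miR-31*, miR-154* and miR-433* rose (3 of 117, where 1.42% of all probe sets rose), and miR-17*, miR-218-2*, miR-330* and miR-99b* fell (4 of 117, where 1.56% of all fell). miR-31* and miR-17* also passed with an adjusted p under 0.05 (limma, Benjamini-Hochberg over all 1412 probe sets), as did 1.13% of all. Of the 7, miR-17*, miR-330* and miR-99b* had a mean of at least 6 (10.3% of the 29, against 11.7% of all 274 probe sets of that level), and the 4 others lay below it. At an unadjusted p under 0.05 alone the count was 20 of 117 (17.1%) against 13.2% of all probe sets and 19.6% of the mature probe sets that are not star. The median log2 change was -0.02 over the star probe sets and -0.01 over all probe sets.

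miR-31* comes from a hairpin on chromosome 4 near the Cdkn2 locus. It read 4.63, 4.67 and 4.59 in Con replicates 16, 17 and 18. In MS2 replicates 3, 4 and 6 it read 5.15, 5.59 and 5.42, and in MS5 replicates 9, 12 and 14 it read 5.15, 5.31 and 5.15. All 6 treated arrays lay above all controls, at a level not far above the hairpin probe sets. The rise in MS2 was 0.75 ± 0.11 (SE, n = 3 against 3) on the log2 scale, with an adjusted p of 0.0184 in limma. In an exact two-sided permutation test of the same 6 arrays p was 0.1, the smallest that 3 against 3 allows. Its partner miR-31 had a wide spread in MS2, from 8.21 to 10.06, and a log2 change of 0.10.

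miR-17* is the 3′ strand of the first hairpin of the miR-17-92 cluster, known for driving proliferation of progenitor cells. It read 8.85, 8.79 and 8.76 in Con, 7.97, 8.29 and 8.28 in MS2 replicates 3, 4 and 6, and 8.41, 8.41 and 8.44 in MS5 replicates 9, 12 and 14. Again all 6 treated arrays lay on one side of the controls, here below. The log2 change in MS2 was -0.62 ± 0.09 (SE, n = 3 against 3; limma adjusted p = 0.0184). miR-17 itself read 11.44 to 11.58 in Con and 11.17 to 11.42 in MS2, a change of -0.23, and the star minus partner difference moved by -0.39 ± 0.13 (adjusted p over 108 pairs, 0.117, limma), which missed the threshold.

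The other star probe sets past the threshold in MS2 missed the adjusted test. miR-154* and miR-433* belong to the imprinted Dlk1-Dio3 region, which is rich in miRs of neurons. miR-154* was at most 5.30 in Con and 5.98, 5.77 and 6.15 in MS2 replicates 3, 4 and 6, a change of 0.73 (limma adjusted p = 0.0934). miR-433* was 5.35, 5.76 and 5.41 in Con and 6.28, 6.18 and 5.86 in MS2, a change of 0.60 (limma adjusted p = 0.0885). Con and MS2 did not overlap for either strand, although the lowest MS2 array of miR-433* was close to the highest Con array.

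Among those that fell, miR-218-2* was 5.19 to 5.34 in Con and 4.87, 4.39 and 4.40 in MS2, a change of -0.69. miR-99b* was 7.98 to 8.19 in Con and 7.29, 7.76 and 7.38 in MS2, a change of -0.59. miR-330* was 9.02 to 9.59 in Con and 8.29, 9.00 and 8.40 in MS2, a change of -0.67. For miR-330* and miR-99b* the array of MS2 replicate 4 lay nearer to Con than both other MS2 arrays. Without it 11 star probe sets passed, 6 of the 7 among them, while 6.44% of all probe sets passed. miR-433* was the one lost. miR-181a-2*, miR-30e*, miR-411*, miR-708* and miR-872* were gained, all of them higher in MS2. The count was 4 without Con replicate 16 (1.84% of all probe sets) and 4 without MS2 replicate 3 (2.97%).

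Groups that did not overlap were more frequent than calls. In MS2 against Con they did not overlap for 22 of the 117 star probe sets, 8 higher and 14 lower, or 18.8% against 15.8% of all probe sets (7.22% higher and 8.57% lower) and 18.8% of all 722 mature probe sets. miR-106b* (a change of -0.43), miR-138* (-0.35) and miR-93* (-0.44) were among those with lower values on all MS2 arrays, and miR-30a* (0.47) among those with higher values. Over the 29 members with a mean of at least 6, 9 had an unadjusted p under 0.05 (31.0%), of which 7 were lower (24.1%). Over all 274 probe sets of that level these shares were 36.1% and 23.7%.

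Base composition moved with these changes. Over the 20 sequenced members with a mean of at least 6, the Spearman correlation of GC content with the change in MS2 against Con was -0.79, and over 100 other mature probe sets of that level -0.57. Probe sets are the points here, and they share the same 9 arrays. By array, the correlation of GC content with the deviation from the mean over all arrays was -0.77 in MS2 replicate 3, -0.77 in MS2 replicate 6 and 0.21 in MS2 replicate 4, against 0.26 to 0.69 in Con and -0.31 to 0.45 in MS5. With the trend of each array on GC content removed, 0 of these 20 members passed the 1.5-fold threshold. Of the 7 calls in MS2 they held miR-17* and miR-99b*, and the 5 others were not in this fit. miR-17* then changed by -0.52 (limma adjusted p = 0.0232 over 120 probe sets) and miR-99b* by -0.34. 

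The question whether the strands of one hairpin changed unequally was put to the difference star minus partner, taken within each array. In MS2 against Con 11 of 104 differences passed the threshold, against 12.0% of all 108 star pairs of the table, nearly all of which are these pairs themselves. The difference became lower for 6 (5.56% of the 108), let-7g*, miR-146b*, miR-150*, miR-15a*, miR-15b* and miR-30b*. It became higher for 5 (6.48% of the 108), miR-433*, miR-485*, miR-674*, miR-708* and miR-877*. Those of let-7g*, miR-15a*, miR-30b* and miR-708* passed with an adjusted p under 0.05 (limma, over 108 pairs, of which 3.70% passed). Both strands had a mean of at least 6 in 17 pairs, and 2 of these passed the threshold (11.8%). In 0 of the 104 pairs did both probe sets pass the threshold, while the star alone passed in 6 and the partner alone in 5 (let-7i, miR-146b and miR-30b higher, miR-674 and miR-877 lower). Over all 722 mature probe sets 5.68% passed, and over all 1412 probe sets 2.97%. With shares that low, pairs with 1 strand past the threshold do not by themselves show that the strands changed unequally.

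miR-30b belongs to a family of closely related strands, abundant in many tissues. Its star was 5.72, 5.33 and 5.57 in Con and 5.15, 5.16 and 4.95 in MS2, while miR-30b was 7.95 to 8.10 in Con and 8.85, 8.31 and 8.78 in MS2. One strand was lower and the other higher on every MS2 array than on any Con array. The difference moved by -1.05 ± 0.24 (SE; limma adjusted p = 0.0460), the widest change among the 104 pairs.

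let-7g belongs to the let-7 family, which holds back progenitor genes and rises as tissues mature. The difference between let-7g* and let-7g was -3.85, -3.87 and -3.58 in Con and -4.59, -4.68 and -4.79 in MS2. All MS2 arrays lay below all Con arrays, by a mean change of -0.92 ± 0.20 (SE; limma adjusted p = 0.0460). let-7g itself had a log2 change of 0.58 (8.98 to 9.46 against 8.51 to 8.78 in Con), and let-7g* changed by -0.34, with a mean signal of 4.78 over all arrays.

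miR-15a shares its hairpin cluster in Dleu2 with miR-16 and is known to restrain the cell cycle. The difference between miR-15a* and miR-15a was -1.18, -1.70 and -1.59 in Con and -2.27, -2.15 and -2.43 in MS2, a change of -0.79 ± 0.16 (SE; limma adjusted p = 0.0460). miR-15a* changed by -0.54 and miR-15a by 0.25. For miR-708 the difference moved the other way, from between -6.69 and -6.42 in Con to between -5.97 and -5.34 in MS2, a change of 0.78 ± 0.18 (SE; limma adjusted p = 0.0469). The log2 change was -0.40 for miR-708 and 0.39 for miR-708*.

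The 7 other differences past the threshold did not pass the adjusted test. For miR-433*, miR-485*, miR-674* and miR-877* they moved by 0.71 to 0.95, and the MS2 arrays were far apart: the difference of miR-485* was -1.68 and -1.64 in MS2 replicates 3 and 6 and -2.84 in replicate 4, against -2.95 to -2.58 in Con. miR-877 is a mirtron, a hairpin cut out by splicing, in Abcf1. For miR-146b*, miR-150* and miR-15b* the difference moved by -0.72 to -0.61. The mean signals of miR-146b* and miR-15b* were 3.94 and 3.80, below the hairpin median of 4.09. At that floor a difference mostly follows the partner and cannot show that the strands changed unequally. Without MS2 replicate 4, 21 of the 104 differences passed, all 11 among them, against 21.3% of the 108 pairs, and 28 passed the adjusted test. Without Con replicate 16, MS2 replicate 3 or MS2 replicate 6 the count was 5, 5 and 6, against 6.48%, 5.56% and 7.41% of the 108. Over the 70 pairs with both sequences, the Spearman correlation of the difference in GC content with the change of the signal difference was -0.39 in MS2, and its part in these changes was not tested.

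In MS5 against Con 0 of 117 star probe sets passed the threshold, against 0.992% of all probe sets, and 0 passed an adjusted p under 0.05 in limma, while 13 had an unadjusted p under 0.05 (8.50% of all probe sets and 11.1% of the mature ones that are not star did). The smallest adjusted p was 0.348. Groups did not overlap for 18, 11 higher and 7 lower, or 15.4% against 12.3% of all (6.52% higher and 5.74% lower) and 15.6% of the mature probe sets that are not star. The widest log2 changes among those higher were 0.57 for miR-31*, 0.50 for miR-411* and 0.47 for miR-30a*. miR-30a* was 6.14, 6.48 and 6.36 in Con and 6.90, 6.77 and 6.72 in MS5 replicates 9, 12 and 14. miR-411* was 5.54 to 5.87 in Con and 5.89, 6.29 and 6.41 in MS5 in the same order. The gap between the groups was narrow for miR-411*, where replicate 9 was next to Con.

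The widest among those lower in MS5 were -0.52 for miR-150*, -0.43 for miR-30b* and -0.41 for miR-99b*. miR-150, a strand of lymphocytes, had its star at 5.52 to 5.94 in Con and at 5.35, 4.97 and 5.37 in MS5. Without MS5 replicate 9, miR-31* and miR-411* passed the threshold, where 1.63% of all probe sets passed. Without replicate 14 the count was 2 (0.850% of all), and without replicate 12 it was 0 (0.779%). Without Con replicate 17 it was 3 (1.70%). The choroid plexus list of 5 miRs had 4 members past the threshold in MS5, all lower, against 0.992% of all probe sets. Its summed signal was 7.02 to 8.63 in MS5 against 8.37 to 8.96 in Con and 8.31 to 9.23 in MS2. For miR-204 and miR-448, MS5 replicate 9 lay within the range of Con, at 7.31 and 7.25. A list of 6 miRs of ciliated cells had 2 past the threshold, both lower, with a median change of -0.85 (-0.77 for choroid plexus). The part of these tissues in the star values was not tested. In bulk tissue fewer cells of a type and less RNA per cell cannot be told apart.

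The difference star minus partner passed the threshold in MS5 against Con for 3 of 104 pairs, against 4.63% of the 108, and none passed the adjusted test. For miR-150* it moved by -0.84, for miR-30b* by -0.70 and for miR-674* by 0.68. All 3 also passed in MS2 against Con, but these contrasts share the control arrays. The changes in MS2 were -0.72, -1.05 and 0.74 in the same order. Without MS5 replicate 12 none of the 3 passed (1.85% of the 108 did). Without MS5 replicate 14 the count was 1 (0.926%), without Con replicate 16 it was 1 (1.85%), and without Con replicate 17 it was 6 (7.41%).

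Between the doses, MS5 against MS2, 0 of 117 star probe sets passed the threshold, against 0.425% of all probe sets, and 16 had an unadjusted p under 0.05 in limma (7.01% of all and 10.3% of the mature probe sets that are not star), with 0 past the adjusted test. Groups did not overlap for 13 (8.43% of all probe sets), of which 10 were higher in MS5 (5.59% of all) and 3 lower (2.83%). miR-15a* (0.54), miR-218-2* (0.52) and miR-138* (0.42) were the widest of these. miR-138*, from a miR of dendrites that limits spine growth, was 7.42, 7.53 and 7.54 in MS2 and 8.10, 7.72 and 7.93 in MS5 replicates 9, 12 and 14, next to 7.84 to 7.88 in Con. miR-154* (-0.47), miR-503* (-0.37) and miR-29c* (-0.23) were the widest of those lower in MS5. The difference star minus partner passed for let-7g* (0.70) and miR-15a* (0.75), 2 of 104 against 1.85% of the 108, and none passed the adjusted test. For miR-15a* it was -1.65, -1.54 and -1.40 in MS5, which overlapped with Con and lay above every MS2 array. Without MS2 replicate 4 the counts were 3 star probe sets, where 3.05% of all probe sets passed, and 14 differences, which were all that passed among the 108 pairs of the table. Without MS5 replicate 9 the differences past the threshold numbered 1 (0.926% of the 108) and the star probe sets 2 (0.850% of all probe sets). The star count was also 2 without MS2 replicate 3 (0.496%) or MS5 replicate 14 (0.212%). It was 1 without MS2 replicate 6 (0.637%) or MS5 replicate 12 (0.779%).

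Grouped by name, the star strands of the Dlk1-Dio3 region had the most members, 13. Of these, 5 had a mean of at least 6. In MS5 against Con all 13 were higher than in Con, by a median of 0.15, with 0 past the threshold and 2 with an unadjusted p under 0.05. Of all 117 star probe sets 51.3% were higher in MS5 and 46.2% in MS2. In MS2, against the same controls, 10 were higher and 3 lower, with a median of 0.13 and miR-154* and miR-433* past the threshold. Over all probe sets the median was -0.01 in MS2 and 0.001 in MS5, and 2.97% and 0.992% of them passed the threshold. Of 8 star strands of the miR-17-92 cluster and its paralogs, 7 were lower in MS2 and 7 in MS5, with medians of -0.09 and -0.11, and miR-17* in MS2 was the 1 call. Of these 8, 3 had a mean of at least 6, miR-17*, miR-93* and miR-106b*. Their falls in MS2 were smaller once the GC trend was removed. Among 9 star strands of glial, immune, vascular and blood miRs, 7 were lower in MS2 and 8 in MS5, and none passed. Of these 9, 1 had a mean of at least 6. Over the 117 star probe sets 53.8% were lower in MS2 and 48.7% in MS5.

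Among the other groups, only the neuron-enriched one held star probe sets past the threshold. Of its 11 star strands 2 passed in MS2, miR-218-2* and miR-330*, both lower, and 0 in MS5. Of all probe sets 2.97% and 0.992% passed, and of the mature ones that are not star 5.66% and 2.16%. miR-124*, the star of the most abundant neuronal miR, read 7.42 to 7.69 on all 9 arrays, with log2 changes of 0.0006 in MS2 and 0.05 in MS5. The 8 let-7 star strands were split, 4 higher and 4 lower in MS2, with none past the threshold. Of these 8, 1 had a mean of at least 6. The difference star minus partner was lower in 5 of their 6 pairs, against 53.8% of the 104. In the miR-30 group of 5, the log2 change in MS2 was 0.47 for miR-30a*, 0.48 for miR-30e* and -0.45 for miR-30b*, and none passed. miR-20b*, miR-30e*, miR-93* and miR-124* were picked after their values were seen. The groups of miR-29 (3), miR-15/16 (5), miR-181 (2) and miR-200 with miR-183 (5) had 0 star probe sets past the threshold in MS2 or MS5.

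The hairpin probe sets gave no call. They were found for 114 of the 117, 184 in number, with a median level of 4.10 and 6 at or above 6, and 0 passed the threshold in MS2 or in MS5. Over all 690 hairpin probe sets 0.145% passed in MS2 and 0 in MS5. Most lie at the floor, so the lack of calls does not show that the precursors stayed unchanged. The genes of miR processing and loading were read on the mRNA arrays. Of 48 probesets for 33 genes, 0 passed the threshold in MS2 against Con (0.0233% of all 55681 probesets did), 0 in MS5 against Con (0.228%) and 0 in MS5 against MS2 (0.129%), with 5, 0 and 1 at an unadjusted p under 0.05 in limma (4.17%, 3.91% and 3.97% of all probesets).

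Drosha, the nuclear nuclease, was 13.2 ± 0.11 in Con, 13.2 ± 0.12 in MS2 and 13.2 ± 0.11 in MS5 (SD, n = 5) on one of its probes. Its cofactor Dgcr8 was 10.8 ± 0.08 in Con, 10.8 ± 0.06 in MS2 and 10.8 ± 0.08 in MS5. Dicer1, which frees the duplex, was 11.7 ± 0.12 in Con, 11.8 ± 0.15 in MS2 and 11.7 ± 0.13 in MS5. For Ago2, which keeps the chosen strand and is listed under its older name Eif2c2, one probe read 12.2 ± 0.16 in Con, 12.3 ± 0.12 in MS2 and 12.4 ± 0.15 in MS5. In each case the groups overlapped, with changes of at most 0.13 between the means of either treated group and Con. The widest changes of the list were on a Lin28b probe, at 0.59 in MS2 and 0.79 in MS5, with overlapping groups. In an exact two-sided permutation test its p was 0.42 and 0.079. The other Lin28b probe changed by 0.34 and 0.32, with p of 0.17 and 0.032 in the exact permutation test. The 5 probesets under 0.05 in MS2 were of Eif2c3 (0.19), Zcchc11 (0.18), Ddx5 (-0.13), Papd4 (-0.14) and Hnrnpa1 (-0.24).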

How the data were processed

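The miR values were deposited on the log2 scale by the authors, after background correction, quantile normalization of probes and median polish (RMA, per the labels), with mouse probe sets kept. The mRNA scans were deposited as spot intensity, 62976 spots per array on 2 slides. As in the methods, the intensity was corrected with normexp and quantile normalized. The offset of 50, the leaving out of control spots and the averaging of spots of a probe are not stated in the methods. This gave 55681 probesets. Of these, 55249 lay within 0.01 of the authors' log2 table on all arrays, and the largest difference was 1.41.

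The 3 groups were fitted together with limma 3.58.1 in R 4.3.3 over all 1412 probe sets, over 108 star minus partner differences and over all mRNA probesets. No filter on low signal was used in these fits. P-values were adjusted by Benjamini-Hochberg. The threshold is that of the study, over 1.5-fold with an unadjusted p under 0.05. Sequences were read with Python 3.11.15 and pandas 2.3.3. The number of arrays limits the precision, and arrays have no read depth.

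Members and gene lists were chosen with earlier results of these data known. Named were the probe sets and differences past the threshold, the 3 widest non-overlapping changes each way in each contrast, and the 10 highest means. Alternatives were another normalization step, array weights, a minimum mean of 6, the mature probe sets alone, fits of 2 groups at a time, and leaving out each array. On simulated data, 98.5% of 1 log2 changes were called over the 1412 probe sets and 95.0% over the 108 differences. The simulated noise was independent between probe sets. Star probe sets here changed by less, from -0.69 to 0.75 in MS2 and from -0.52 to 0.57 in MS5. Changes of that size were not simulated, so these shares do not apply to them.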

Additional observations from a re-analysis of the deposited data

Results flagged for a closer look

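Single far values were looked for in the mRNA groups of 5 and not in the miR groups of 3. The test singled out 26 of 198 sets of 5 values, where chance gives about 1 in 20. On MS5 replicate 9 the Y-linked Ddx3y read 6.24, and the Xist probes A_52_P113537 and A_52_P300376 read 11.3 and 9.45, each far from the 4 other MS5 arrays and against the label male. Neurod2 read 10.6 on MS2 replicate 4, far below the 4 other MS2 arrays. The first Xist probe read 6.08 on Con replicate 19, above the other Con arrays by a small amount at background level. Whether the miR array with the same number came from the same pup was not tested.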

How the results depend on the processing

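No paired analysis was possible because the groups share no replicate numbers. Leaving out 1 array at a time, the star probe sets past the threshold ranged from 4 to 11 in MS2 against Con (0 to 13 by adjusted p), 0 to 3 in MS5 against Con (0 to 0) and 0 to 3 in MS5 against MS2 (0 to 0). The star minus partner differences ranged from 5 to 21 (0 to 28), 0 to 6 (0 to 0) and 1 to 14 (0 to 2), and the miR processing genes from 0 to 0, 0 to 1 and 0 to 0. With a further quantile normalization 4 star probe sets passed in MS2 (2.76% of all probe sets) and 1 in MS5 against MS2 (0.496%). With array weights 7 star probe sets passed in MS2 (4.75% of all probe sets), and 6 did so by adjusted p. In MS2 17 differences passed (17.6% of the 108 pairs) and 21 did so by adjusted p. In MS5 against MS2 1 star probe set (1.06% of all probe sets) and 7 differences (6.48% of the 108) passed, 1 by adjusted p. With a minimum mean of 6, 3 star probe sets (1 by adjusted p) passed in MS2, where 11.7% of all 274 probe sets tested did. Of the differences 2 passed in MS2 (11.1% of the 18 pairs tested), 1 in MS5 (5.56%) and 0 in MS5 against MS2. Fewer probe sets were tested there. That filter put the median of all probe sets in MS2 at -0.10. With fits of 2 groups, 0 star probe sets and 1 difference passed by adjusted p in MS2.

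Both of the next settings were chosen after seeing the data. Without MS2 replicate 4 and MS5 replicate 9 the counts were 11 star probe sets (18 by adjusted p) and 22 differences (29) in MS2, 2 (2) and 5 (3) in MS5, and 3 star probe sets and 11 differences (2) in MS5 against MS2. In the same order 6.52%, 2.05% and 2.97% of all probe sets passed the threshold, and 22.2%, 6.48% and 10.2% of the 108 pairs. With the GC trend removed among the 20 sequenced star strands with a mean of at least 6, 0 passed in MS2. These held miR-17* and miR-99b* of the 7 calls, and miR-17* was then at -0.52 with an adjusted p of 0.0232 in limma. Over 35 named probe sets and differences and 557 values under alternatives, 54 no longer passed the threshold, 17 newly passed, 0 reversed and the rest kept direction and side. These were named for passing the threshold or for groups that did not overlap. Where groups do not overlap, leaving out 1 array cannot reverse a change. The lack of reversals was thus largely fixed by that choice and does not show a stable direction. Of the changes in MS2, those of miR-31*, miR-154* and miR-218-2* and the differences of let-7g*, miR-15a*, miR-30b* and miR-708* passed under each alternative in which they were tested. These star probe sets had means below 6, so neither the minimum mean of 6 nor the GC fit tested them. Passing elsewhere therefore does not rank them above miR-17* or miR-99b*, which were tested there. The causes were not tested. Signals near 4 lie at the level of hairpin probe sets, which limits what low star strands can show.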
